A study of Drosophila melanogaster with 6 samples.

Results

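The non-telomeric LINE elements of the Drosophila melanogaster ovary were followed in flies with 2 copies and flies with 1 copy of a deletion of the flamenco (flam) promoter. LINE families were taken from the class name that the count table gives each transposon family, leaving out HeT-A, TAHRE and the TART families, which live at chromosome ends. This gave 35 families of the 127 transposon families in the table, which also holds 17633 genes. They comprised 24 families of the Jockey class, 5 of R1, 2 of I, 2 of CR1, 1 of R2 and 1 of Loa.

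Messenger RNA was sequenced from ovaries of flies aged 3 to 6 days, as 3 libraries of each of 2 genotypes. One group was flamDeltaProm/flamDeltaProm, with the flam promoter deletion on both X chromosomes, and is called homozygous. The other, called FM7, was flamDeltaProm/FM7 and so carried 1 copy of the same deletion over the X balancer chromosome FM7. Both groups were +/+ on the other chromosomes named. The sample titles call the second group WT, whereas the genotype field names FM7, which was followed. The groups thus differ in a whole X chromosome, so the deletion and any transposon copies particular to either X cannot be told apart. Whether the replicates came from separate flies is not stated, and the p-values below measure only how far these libraries spread, which may be technical. In whole ovaries, fewer cells of a type and less RNA per cell cannot be told apart either.

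LINE elements are retrotransposons without long terminal repeats. They copy themselves by cutting chromosomal DNA and reverse transcribing their own RNA directly into the break, and many copies are cut short at the 5′ end. In the fly ovary they are restrained by Piwi-interacting RNAs (piRNAs), which guide Argonaute proteins to transposon RNA. Germ cells make piRNAs from many clusters on several chromosomes and amplify them on transposon RNA in a cycle called ping-pong. The somatic follicle cells around them rely mainly on flam, a single X-linked cluster best known for silencing Gypsy-class elements with long terminal repeats.

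Library totals ran from 19564819 to 23181058 counts. RNA of flam itself was at 0.507, 0.251 and 0.760 CPM (counts scaled to library size) in homozygous libraries 1 to 3 and at 1.93, 1.97 and 1.92 CPM in FM7 libraries 1 to 3. Its log2 fold change of homozygous against FM7 was -1.93 (SE 0.39). It passed edgeR's quasi-likelihood test, adjusted p = 0.0119. The libraries therefore went with their labels.

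The summed RNA of the non-telomeric LINE families had similar means in both genotypes, although its make-up differed. These families took 0.0121%, 0.0176% and 0.0148% of all counts in homozygous libraries 1 to 3, and 0.0155%, 0.0148% and 0.0158% in FM7 libraries 1 to 3. The homozygous values thus lay on either side of the FM7 values and were spread more widely. The means were 0.0149% ± 0.00271 (SD, n = 3) and 0.0154% ± 0.000502, a ratio of 0.966, with an exact two-sided permutation p of 0.8. A design of 3 against 3 can give no p below 0.1. The order of the group means turned when homozygous replicate 1 was left out, with a log2 ratio of 0.08 in place of -0.05. It also turned when Doc, the family with most reads, was left out: the other 34 families took 0.00895% ± 0.000958 against 0.00616% ± 0.000274, a ratio of 1.45, with the smallest permutation p of 0.1.

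**Figure D1:**
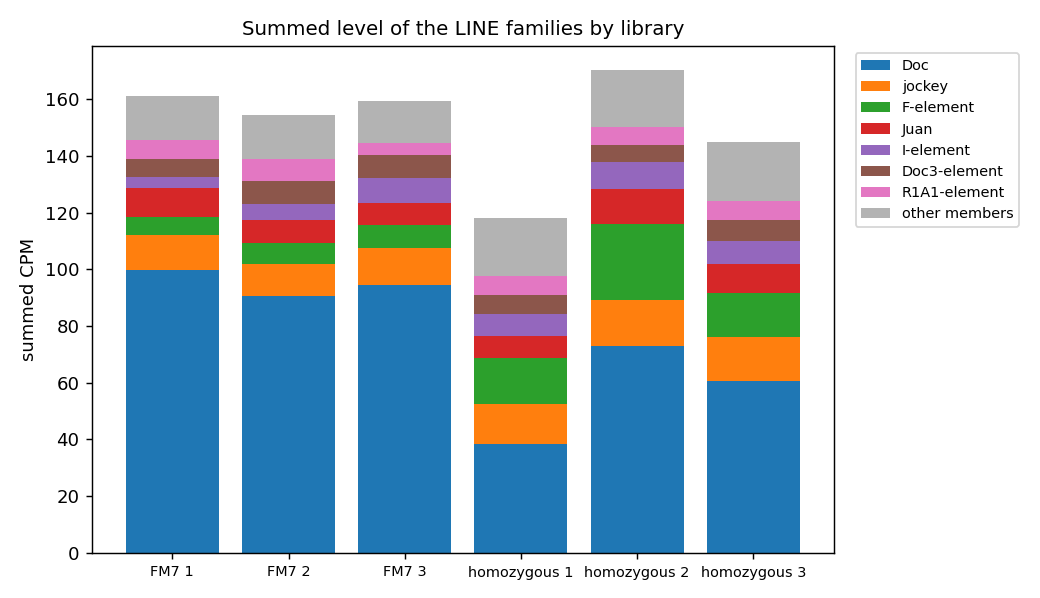
Stacked bars give the summed CPM of the 35 families in each library, with the 7 families of highest mean CPM in colour and the rest in grey. The blue block of Doc is shorter and the green block of F-element taller in the 3 homozygous libraries than in the 3 FM7 libraries, while the full bars overlap between genotypes.

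Of the 35 families, 17 had enough counts to be tested together with all genes, and 18 did not. Past an adjusted p of 0.05, 2 of the 17 were higher in homozygotes, Ivk and F-element, and 15 did not pass. Across all 9229 features tested, 12.0% were higher and 7.71% lower, so the share of members called higher was near the background. The count of lower members was 0 by edgeR and by limma-voom and 1 by DESeq2, and at an unadjusted p under 0.05 it was 1 by edgeR, Doc in each case. The matching shares of all features were 7.29% by limma-voom, 8.23% by DESeq2 and 16.5% by edgeR at the unadjusted p. The median log2 fold change was 0.26 for the 17 members and -0.01 for all features, and 14 members had a positive and 3 a negative value. In 7 of the 17 every homozygous library lay above every FM7 library in CPM, and in 1 every homozygous library lay below. Of all features tested, 21.8% had groups that did not overlap with homozygotes higher, and 20.0% with homozygotes lower. G2 and Rt1a are among both the 14 positive and the 7 separate families. Both met the filter on low counts through their homozygous libraries alone, so the filter favoured their direction in these counts and in the median.

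**Figure D2:**
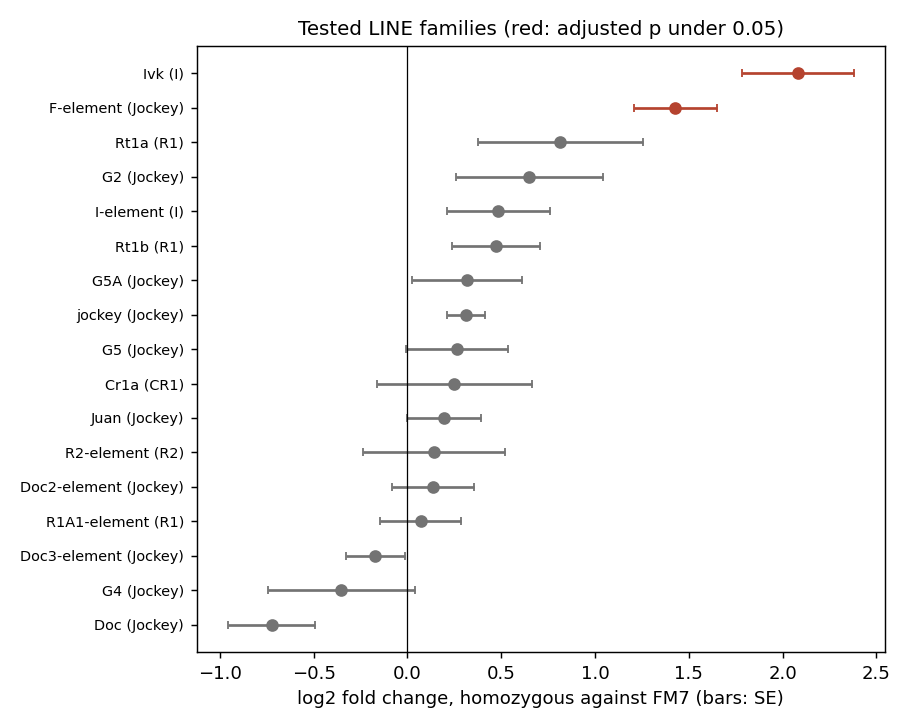
Points give the log2 fold change of homozygous against FM7 for the 17 tested families, with their class in brackets and bars for the SE. Ivk and F-element, in red, stand furthest to the right, and Doc stands furthest to the left at -0.72.

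The Jockey class holds most Drosophila LINE families, which end in a run of adenines, and F-element was its only tested non-telomeric member past the threshold. F-element is a long-known family that encodes its own reverse transcriptase. It was at 16.5, 26.7 and 15.5 CPM in homozygous libraries 1 to 3 and at 6.41, 7.19 and 8.20 CPM in FM7 libraries 1 to 3. Every homozygous library was above every FM7 library, and homozygous replicate 2 was higher than the other homozygotes. The log2 fold change was 1.43 (SE 0.22, adjusted p = 0.00580 by edgeR), from 453 counts in FM7 and 1395 in homozygous libraries. F-element passed the threshold in all 12 alternative fits, with log2 fold changes from 1.13 without homozygous replicate 2 to 1.57. Its share of LINE counts was 13.4% ± 2.56 (SD, n = 3) in homozygotes and 4.59% ± 0.585 in FM7.

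Doc, a Jockey-class family known from several classical insertion mutations, gave more reads than any other member. It was at 38.4, 73.1 and 60.7 CPM in homozygous libraries 1 to 3 and at 99.6, 90.5 and 94.3 CPM in FM7 libraries 1 to 3. All homozygous libraries were below all FM7 libraries, and homozygous replicate 1 was far below the other homozygotes. The log2 fold change of -0.72 (SE 0.23) missed the threshold (adjusted p = 0.0863 by edgeR). The call depended on the tool and on homozygous replicates 1 and 2. DESeq2 gave -0.72 with an adjusted p of 6.7e-04, and edgeR gave -0.51 (adjusted p = 0.0115) without homozygous replicate 1 and -0.94 (adjusted p = 0.0441) without homozygous replicate 2. Doc made up 59.9% ± 1.74 of LINE counts in FM7 and 39.1% ± 5.72 in homozygotes (SD, n = 3). The sources used here do not give the lengths of the family sequences used for counting, so shares of counts are not levels per length and families cannot be ranked by level.

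The namesake jockey differed little between genotypes. It was at 14.0, 16.2 and 15.5 CPM in homozygous libraries 1 to 3 and at 12.3, 11.4 and 13.0 CPM in FM7 libraries 1 to 3. The groups did not overlap, yet the log2 fold change was only 0.31 (SE 0.10, adjusted p = 0.0576 by edgeR). With library sizes alone it was 0.39 (adjusted p = 0.0285), and the median of all features then moved from -0.01 to 0.07.

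Juan and Doc3-element overlapped between genotypes. Juan, a family with few annotated copies, was at 7.48, 12.4 and 10.3 CPM in homozygous libraries 1 to 3 and at 10.3, 8.15 and 7.92 CPM in FM7 libraries 1 to 3. Its log2 fold change was 0.19 (SE 0.20, adjusted p = 0.517). Doc3-element, a relative of Doc, was at 6.85, 6.07 and 7.22 CPM against 6.59, 8.10 and 8.02 CPM, in the same order of libraries. Its log2 fold change was -0.17 (SE 0.16, adjusted p = 0.466), so the size seen for Doc was not seen in this relative, though the difference between the families was not tested.

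The other tested Jockey-class members had fewer reads. Doc2-element had a mean of 2.88 ± 0.176 CPM in homozygotes and 2.61 ± 0.0911 CPM in FM7 (SD, n = 3). Its groups did not overlap, with a log2 fold change of 0.14 (adjusted p = 0.687). The 4 tested families of the numbered G group, G2, G4, G5 and G5A, had log2 fold changes from -0.35 for G4 to 0.65 for G2, with adjusted p from 0.266 to 0.551. Of these, G2 met the filter on low counts through its homozygous libraries alone. G-element itself, after which they are named, had 28 counts in homozygous and 19 in FM7 libraries and was not tested.

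**Figure D3:**
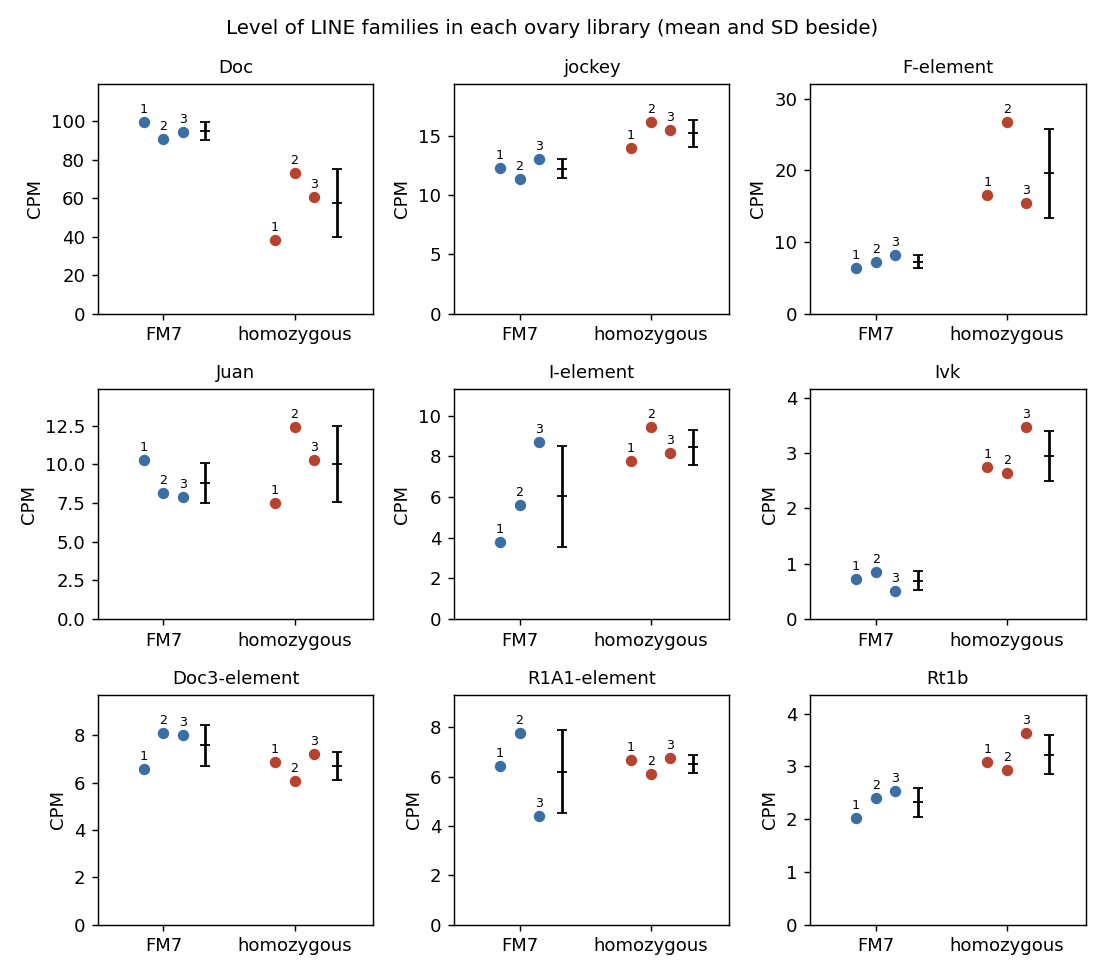
Each panel gives the CPM of a family in every library, numbered by replicate, with the mean and SD of each group beside its points and the axis starting at 0. The groups are apart for Doc, jockey, F-element, Ivk and Rt1b and overlap for Juan, I-element, Doc3-element and R1A1-element.

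The I class held the largest fold change of the 17 tested families. Ivk, a little-studied relative of the I-element, had 65, 63 and 82 counts in homozygous libraries 1 to 3 and 16, 16 and 11 counts in FM7 libraries 1 to 3. In CPM these were 2.75, 2.64 and 3.46 against 0.717, 0.852 and 0.516, so the lowest homozygous library was well above the highest FM7 library. The log2 fold change was 2.08 (SE 0.30, adjusted p = 0.00341 by edgeR), and it stayed between 1.90 and 2.24 and past the threshold in all 12 alternative fits. Ivk nonetheless rested on few reads, 210 counts in homozygous and 43 in FM7 libraries.

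The I-element is the cause of a classical hybrid dysgenesis, in which it moves in the germ line of daughters of crosses between certain strains. It was at 7.78, 9.41 and 8.15 CPM in homozygous libraries 1 to 3 and at 3.81, 5.59 and 8.72 CPM in FM7 libraries 1 to 3. FM7 replicate 3 lay among the homozygous libraries, whereas FM7 replicates 1 and 2 were lower. The log2 fold change was 0.48 (SE 0.28, adjusted p = 0.244 by edgeR), and without FM7 replicate 3 it was 0.84 (adjusted p = 0.0360). The 2 I-class families together were at 11.4 ± 0.784 CPM in homozygotes and 6.74 ± 2.37 CPM in FM7 (SD, n = 3), a ratio of 1.69, with the smallest exact permutation p of 0.1.

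R1 and R2 elements insert into the genes for ribosomal RNA, part of which lie on the X chromosome that differs between the groups. R1A1-element was at 6.68, 6.11 and 6.76 CPM in homozygous libraries 1 to 3 and at 6.45, 7.78 and 4.41 CPM in FM7 libraries 1 to 3. The homozygous libraries lay within the range of the FM7 libraries, and the log2 fold change was 0.07 (SE 0.22, adjusted p = 0.843). R2-element was at 1.01, 0.795 and 0.760 CPM against 1.17, 0.586 and 0.563 CPM, in the same order, and the log2 fold change was 0.14 (SE 0.38, adjusted p = 0.815). The direction of both turned when FM7 replicate 3 was left out, and that of R2-element also without FM7 replicate 2, to log2 fold changes between -0.02 and -0.13.

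The tested Rt1 families, which are classed with R1, had every homozygous library above every FM7 library but did not pass the test. Rt1b was at 3.09, 2.93 and 3.63 CPM in homozygous libraries 1 to 3 and at 2.02, 2.40 and 2.53 CPM in FM7 libraries 1 to 3, and the log2 fold change was 0.47 (SE 0.23, adjusted p = 0.185). Rt1a had 38 counts in homozygous and 19 in FM7 libraries, and the log2 fold change was 0.81 (SE 0.44, adjusted p = 0.214). It met the filter on low counts through its homozygous libraries alone, so the filter favoured its separation. Rt1c, below the filter, overlapped between genotypes, with 7, 9 and 3 counts in homozygous and 1, 8 and 4 in FM7 libraries 1 to 3. Cr1a, the tested family of the CR1 class, had 49 counts in homozygous and 36 in FM7 libraries, and the log2 fold change was 0.25 (SE 0.41, adjusted p = 0.697).

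Of the 18 families that were not tested, 16 had at least 1 count and together gave 247 counts in homozygous and 183 in FM7 libraries. X-element (36 in homozygous and 24 in FM7 libraries), BS (33 and 23) and G-element had most reads, before baggins of the Loa class (25 and 18), G6 (23 and 21) and Porto1 (22 and 22). Rt1c had 19 and 13 counts, Helena 9 and 17, jockey2 11 and 14, and Fw3 13 and 4. BS3 (8 and 3), Doc4-element (8 and 2), G3 (8 and 1), Fw2 (2 and 0), G7 (1 and 1) and R1-2 (1 and 1) were close to silent. BS4 and Q-element had 0 counts in all 6 libraries, where a count of 0 allows up to 3 counts, or 0.129 to 0.153 CPM, in a library. The main fit thus gives no test of a difference for these families. Without the filter, edgeR tested 33 families, among them the 16 with counts. The 2 higher were again Ivk and F-element, and 0 were lower. The limits given for a count of 0 cover counting error only.

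Set against Gypsy-class families, on which flam is known to act, the LINE families took a much smaller part of transposon RNA in homozygotes. Gypsy-class families took 0.626% ± 0.148 of all counts in homozygotes and 0.0276% ± 0.00216 in FM7 (SD, n = 3), and 65.7% of those tested were higher, at a median of 1.76 (log2). The log2 ratio of LINE to Gypsy-class counts was -5.41, -5.50 and -5.26 in homozygous libraries 1 to 3 and -0.96, -0.82 and -0.74 in FM7 libraries 1 to 3. The libraries of the groups lay far apart, with a difference of -4.55 and the smallest exact permutation p of 0.1. Leaving out Doc gave -3.95. LINE families were 9.97% ± 2.41 of transposon counts in FM7 and 1.61% ± 0.0113 in homozygotes.

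Against the telomeric LINE families the difference was small and rested on Doc. The log2 ratio of non-telomeric to telomeric LINE counts was 3.00, 3.56 and 3.52 in homozygous libraries 1 to 3 and 3.64, 4.04 and 4.25 in FM7 libraries 1 to 3. The difference was -0.62, with the smallest exact permutation p of 0.1, and without Doc it was -0.02, with a permutation p of 0.8. Of the telomeric families HeT-A was past the threshold, and the log2 fold change was 0.95 (SE 0.19, adjusted p = 0.0125 by edgeR).

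**Figure D4:**
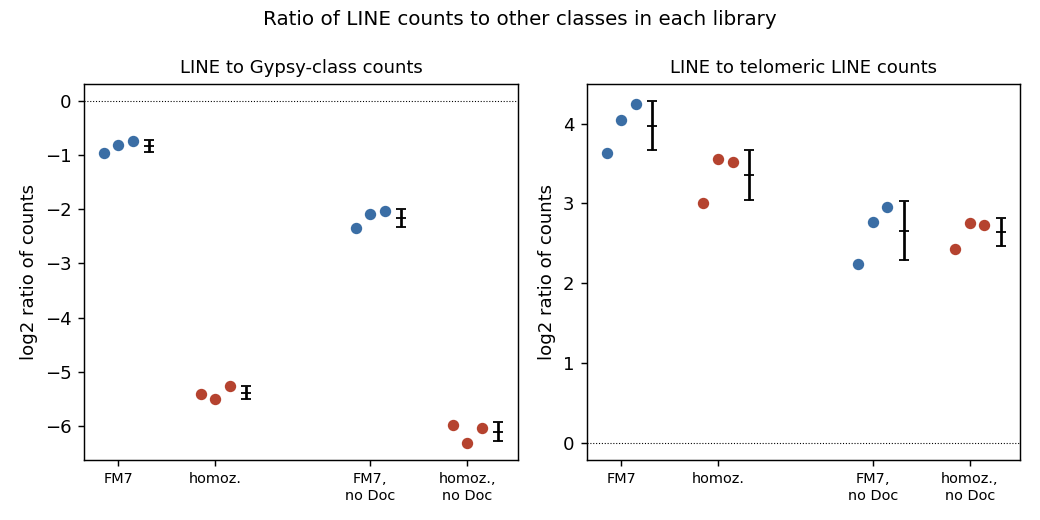
Points give the log2 ratio of summed LINE counts to Gypsy-class counts (left) or telomeric LINE counts (right) in each library, with group mean and SD, for all 35 families and without Doc. Left, homozygous libraries lie between -5.50 and -5.26 and FM7 libraries between -0.96 and -0.74; right, the groups overlap once Doc is left out.

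The positions of copies in the reference genome were taken from Ensembl release 115 (assembly BDGP6.54). The authors may have used another build, and the reference does not hold the copies of these strains. It annotates 1057 insertions of the 35 families, of which 15.1% lie on X, close to the 15.5% of all 5896 annotated transposon insertions. F-element has 87 insertions with 6 on X, Doc 81 with 6, jockey 96 with 23, I-element 38 with 9, Juan 12 with 5 and Ivk 13 with 2. Across the 17 tested families, Spearman's rho of the log2 fold change was 0.07 with the number of insertions and 0.10 with the share of them on X. These values are descriptions, since families share libraries and differ in depth.

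The flam locus (X, 21631891 to 21790731, plus strand, annotated as a noncoding RNA) holds 47 annotated transposon insertions, and 7 of them are of non-telomeric LINE families. F-element has 2 of these, at 21662245 to 21666948 on the plus strand and at 21740625 to 21744041 on the minus strand. Doc has 1, at 21672490 to 21676734 on the plus strand. The others are single insertions of Cr1a on the plus strand and of G6, Helena and jockey2 on the minus strand. A family with an insertion on the minus strand can give RNA complementary to its own from a flam transcript. Of the tested families with an insertion in flam, F-element rose, Doc had a log2 fold change of -0.72 and Cr1a one of 0.25. Ivk, which also rose, has no annotated insertion there.

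Reads of a family can also come from copies inside genes, and the sources used here do not give the way families were counted. Of the 13 Ivk insertions 7 overlap a gene, and 4 of these host genes were tested. Map205, SPoCk, Ugt50B3 and CG9380 had log2 fold changes from -0.33 to 0.44, with adjusted p from 0.427 to 0.486. Their part in the Ivk result was not tested. The 87 F-element insertions overlap 45 genes in the table, of which 31 were tested. In homozygotes 4 of these were higher, against 11.7% of all 9150 tested genes, and 5 were lower, against 7.75%. The 4 were CG32444 (log2 fold change 2.19), CG44098 (1.32), the cadherin gene CadN (1.27) and the piRNA pathway gene qin (0.43). Each has the insertion on the opposite strand. The 5 lower were flam itself (-1.93), dpr1 (-1.11), CG41378 (-0.39), Haspin (-0.20) and Nipped-A (-0.17). CG41378, Haspin and many host genes that did not pass also have an opposite-strand insertion. The part of these host genes in the F-element result was not tested.

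Most genes of the piRNA pathway that acts on LINE elements in germ cells did not pass the test. Of 35 genes, all tested, 4 were higher and 3 lower, against 11.7% and 7.75% of all tested genes, and 28 did not pass. The median log2 fold change was -0.02. The ping-pong genes qin (0.43, SE 0.07, adjusted p = 0.00641) and krimp (0.28, SE 0.06, adjusted p = 0.0114), which encode Tudor-domain proteins of the perinuclear nuage, were higher. So were the Argonaute gene aub (0.22, adjusted p = 0.0475) and the helicase gene spn-E (0.16, adjusted p = 0.0486). moon, whose product starts transcription of germline piRNA clusters, was lower (-0.65, SE 0.07, adjusted p = 0.00102). nxf2, which acts with Piwi in nuclear silencing, was also lower (-0.33, SE 0.05, adjusted p = 0.00531), as was mael (-0.21, adjusted p = 0.0492). All these p are by edgeR.

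The pathway calls differed in how far they rested on single libraries. qin, nxf2 and moon passed in all 12 alternative fits, and krimp in all but the fit without homozygous replicate 3 (adjusted p = 0.0559). aub and spn-E passed in none of the 6 fits without a library, by edgeR, and mael in 1 of them. The number of higher genes was therefore 1 without homozygous replicate 3 and 2 in each other fit without a library. Of all 12 alternative fits, aub and spn-E each passed in 3, and not with limma-voom, without the filter or with the replicate block. mael passed in 4 of the 12, and not with limma-voom, library sizes alone or the replicate block. piwi (0.14, adjusted p = 0.098), AGO3 (-0.03), vas (0.19) and rhi (-0.03) did not pass.

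Markers of the cells in the samples were set beside these values. Their counts stand against 11.7% of all tested genes higher and 7.75% lower. Of 14 germ cell genes, 1 was past the threshold, pgc (log2 fold change -0.25), a share near that background, and their summed level was 4655 to 5087 CPM in homozygous and 4572 to 5115 CPM in FM7 libraries. Of 14 follicle cell genes 2 were higher and 8 lower, with sums of 1809 to 2458 CPM against 3915 to 5216 CPM. Most of these sums came from 3 of the lower genes. Mean CPM in homozygotes and FM7 was 958 and 2258 for Vm26Aa, 554 and 1385 for Vm26Ab, and 129 and 279 for Vm32E. Also lower were tj, Cad99C, wbl, slbo and br. Fas3 (85.2 against 42.6 CPM) and cas (8.65 against 1.78 CPM) were higher, and fs(1)Yb, eya, mirr and ttk did not pass. Of 9 tested haemocyte genes 7 were higher and 1 lower, with a median of 3.15. Their sums were 304 to 338 CPM against 303 to 325 CPM, most of it from crq, which did not pass (0.05), and srp, the lower gene (-1.21). The 7 higher genes were Hml, Pxn, PPO1, PPO2, NimC1, eater and Sr-CI, with log2 fold changes from 3.11 to 3.78. These had few reads in FM7, from 9 counts for eater to 206 for Pxn. He, a marker of larval haemocytes, had 3 counts in homozygous and 0 in FM7 libraries. Of 10 muscle sheath genes 8 were higher, with sums of 450 to 701 CPM against 313 to 380 CPM. Of 5 tested fat body genes 2 were higher and 1 lower. The part of these cells in the values of Ivk, F-element and Doc was not tested.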

How the data were processed

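The authors deposited 1 table of raw counts, whole numbers for each gene and each transposon family. PolyA RNA was made into strand-specific libraries, per the labels' protocols. The tools named per the submitters' processing notes, with no role given, were DESeq2 1.30.1, featureCounts 2.0.1 and STAR 2.7.8a. The sources used here do not give the build, the strand setting or the handling of reads that fit several copies, so related families may share or split reads.

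All genes and families were tested together with edgeR 4.0.16 in R 4.3.3 (TMM scaling, filterByExpr by group, robust quasi-likelihood test, Benjamini-Hochberg adjustment, threshold 0.05). CPM uses TMM-scaled totals of tested features. Each SE was obtained from the unshrunken fold change and its F statistic (size over root F). Shares and ratios per library were compared by exact two-sided permutation tests. Alternatives were DESeq2 1.42.0, limma-voom (limma 3.58.1), other scalings, no filter, a replicate block and leaving out each library. The procedure was tested on simulated data. Any pair of replicates differed beyond counting noise (chi-square per degree of freedom 8.18 to 38.9), so none was taken for the same library deposited again. Repeat preparations of the same RNA could exceed counting noise too. No sequence of a family was used here.

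Named with the value in every library were members past the threshold, the 8 with the highest mean CPM, and jockey, Doc, I-element, F-element, R1A1-element and R2-element. G-element, also in that rule, is given by its total counts, as are all members below the filter. Of the pathway list, all members past the threshold and some others were named. Of the marker lists only some members were named, whether past the threshold or not, and the rest are given as counts of genes. In the lists, nos, Bicd and boot were looked up under their symbols nanos, BicD and Boot. The members and lists were chosen with earlier results of these data known. Annotation insertions were matched by the name before the brace, and 35 gene identifiers had no symbol.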

Additional observations from a re-analysis of the deposited data

How the results depend on the processing

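Of 204 refitted log2 fold changes of the 17 tested families, 195 kept their direction and side of the threshold, 5 newly passed it and 4 changed sign. F-element and Ivk passed in every one of the 12 alternative fits. The number of higher families was 2 or 3 throughout. The number of lower families was 1 with DESeq2 and ranged from 0 to 1 when a library was left out, which is Doc each time. The sign changed for R2-element, with a range of -0.046 to 0.57 over fits without a library, R1A1-element (-0.13 to 0.26) and Cr1a (-0.085 to 0.50). The log2 ratio of the LINE share was -0.05, 0.54 without Doc, and -0.19 to 0.076 when a library was left out. Higher piRNA pathway genes were 4, 5 with library sizes alone, 2 with the replicate block, and 1 to 2 when a library was left out. Lower ones were 3, 2 with library sizes alone or the replicate block, 4 with DESeq2 size factors in edgeR, and 2 to 4 when a library was left out. With limma-voom aub, spn-E and mael did not pass, and without the filter aub and spn-E did not. The causes were not tested. Same-numbered libraries of the groups did not deviate together (correlations -0.30, -0.07 and -0.04), so the replicate block was not used in the main results. With it, 2 LINE families were higher and 0 lower by edgeR. Fits without a library hold fewer samples. Depth limits the 18 families below the filter, the largest of which had 60 counts in all.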
